A study of Mus musculus with 74 samples.

Results

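The Ms4a genes encode small membrane proteins that cross the cell membrane several times, and most of them lie side by side in clusters on a single chromosome. The family includes Ms4a1, which encodes the B cell antigen CD20, and Ms4a2, which encodes a chain of the high-affinity IgE receptor. Other members are made mainly by monocytes and macrophages. Human MS4A4A is a macrophage protein that associates with the beta-glucan receptor Dectin-1 (Clec7a in the mouse), variation near MS4A4A and MS4A6A has been tied to soluble TREM2 in cerebrospinal fluid, and in the mouse brain Ms4a7 is used as a marker of border macrophages and of macrophages that come from grafted bone marrow.

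The 6 genes described here are Ms4a7, Ms4a4a, Ms4a6b, Ms4a6c, Ms4a6d and Ms4a4c, taken by symbol from an RNA-seq study of the hSOD1-G93A mouse, a transgenic model of amyotrophic lateral sclerosis. Each symbol had 1 row among 58976 features, of which 23297 carried a symbol, and 16 Ms4a genes had a row in all. They were chosen by their FPKM levels: Ms4a7 stood out for its level in end-stage G93A against WT microglia, and the others belong to the same family. That contrast is therefore given as a description, with no p-value. The end-stage G93A microglia also enter 3 further comparisons, where the p-values of Ms4a7 are not independent of how it was chosen.

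The study collected 74 libraries from female mice: microglia of the spinal cord (MG) and macrophages of the sciatic nerves (MP), both bound to magnetic beads by an antibody to CD11b, which neutrophils and monocytes also carry. Non-grafted MG came from G93A mice that were pre-symptomatic (n = 4, mean age 50.8 days), at onset, defined as the weight peak (n = 5, 105 days), early symptomatic with 10% weight loss (n = 4, 152.6 days) or at end stage (n = 4, 169.4 days). As controls served mice that carry a wildtype hSOD1 transgene, called WT here (n = 4 at 107.3 days and n = 4 at 165.4 days), and non-transgenic C57BL6/J mice, called B6 (n = 4 at 109.8 days and n = 4 at 165.6 days). The G93A donors of non-grafted MP were at the same 4 stages (n = 3, 3, 4 and 4). A further 4 end-stage MP libraries are named as WT in one label and as G93A in the others, and are called described as WT. All grafted animals were G93A mice that received bone marrow at onset, either from WT or from G93A donors. They gave MG and MP at the early symptomatic stage and at end stage (n = 3 per group, n = 2 for MP with WT marrow at the early stage). The sources used here do not give how many host cells remained. A library stands for 1 mouse, but nerves of 2 mice were combined for each MP library before symptoms.

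Values are FPKM, fragments normalised to transcript length and library size, so levels of different genes are compared per length. Read depth per library is unknown. In non-grafted MG, the 10 microglia markers summed to between 650 and 18167 FPKM and none was at 0, so microglia transcripts were present. The name MG is that of the label, since transcripts of other cells were abundant too. The 10 oligodendrocyte markers summed to 1842 to 11288 FPKM in end-stage G93A MG, against 27891 to 32472 FPKM in pre-symptomatic G93A MG. Microglia markers in those pre-symptomatic libraries summed to 1504 to 7762 FPKM. Neutrophil markers reached 79448 FPKM in older WT MG replicate 1. In MP, the 10 neutrophil markers alone summed to between 75073 and 207281 FPKM out of library totals of 625386 to 986659 FPKM. The 8 monocyte markers summed to 3738 to 13270 FPKM there. The measured markers of border and marrow-derived macrophages summed to 91.4 to 1310 FPKM, with medians of 7.07 FPKM for Mrc1 and 4.46 FPKM for Cd163. The 3 measured of 5 erythroid markers summed to between 3377 and 164153 FPKM in MP. The MP libraries are therefore called by their label, but neutrophil and erythroid transcripts were abundant in them. In such bulk libraries, fewer cells of a type and less RNA per cell cannot be told apart.

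All 6 genes lie within chr19:11321039-11604804 (mm10). Ms4a7 spans chr19:11321039-11336148 on the minus strand, Ms4a4a chr19:11375488-11392915 on the plus strand and Ms4a4c chr19:11407659-11429715 on the plus strand. Further along are Ms4a6c at chr19:11469368-11482197 and Ms4a6b at chr19:11518559-11531256, both on the plus strand, and Ms4a6d at chr19:11586605-11604804 on the minus strand. The row of Ms4a1 overlaps that of Ms4a7 on the same strand. Ms4a1 did not exceed 3.64 FPKM in any non-grafted MG library, so it was far below Ms4a7 wherever Ms4a7 was high in MG. In non-grafted MP it ranged between 0 and 68 FPKM, so reads of Ms4a1 and Ms4a7 in the overlap cannot be told apart there and the MP values of Ms4a7 are uncertain. The pre-symptomatic MP libraries with 95 and 109 FPKM of Ms4a7 had 0.04 and 0 FPKM of Ms4a1. A feature with no symbol on the minus strand overlaps Ms4a6c and reached at most 29.8% of the Ms4a6c level in any MP library. The sources used here do not say whether counting used strand, so reads of that feature and of Ms4a6c cannot be told apart. Another feature with no symbol overlaps Ms4a4c on the same plus strand. Its level is not given here. Reads of it and of Ms4a4c in the overlap cannot be told apart, so the values of Ms4a4c are uncertain as well.

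The plus-strand neighbours Ms4a6b and Ms4a6c share stretches of sequence, also in their promoters. Promoter windows from RefSeq (GRCm38.p6, 250 bases before the start site to 50 after) were matched for 5 of the 6 genes. The pair is printed because it is the only one of the 10 pairs among these 5 windows that shares any identical run of at least 12 bases. Capitals mark the shared runs. The windows are chr19:11518309-11518608 for Ms4a6b and chr19:11469118-11469417 for Ms4a6c, both on the plus strand, read 5′ to 3′.
Ms4a6b: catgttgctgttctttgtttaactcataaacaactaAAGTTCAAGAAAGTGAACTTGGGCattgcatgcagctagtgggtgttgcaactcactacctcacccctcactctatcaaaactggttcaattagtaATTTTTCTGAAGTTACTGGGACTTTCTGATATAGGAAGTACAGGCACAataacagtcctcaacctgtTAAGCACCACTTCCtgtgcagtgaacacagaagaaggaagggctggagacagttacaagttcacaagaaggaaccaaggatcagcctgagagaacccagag
Ms4a6c: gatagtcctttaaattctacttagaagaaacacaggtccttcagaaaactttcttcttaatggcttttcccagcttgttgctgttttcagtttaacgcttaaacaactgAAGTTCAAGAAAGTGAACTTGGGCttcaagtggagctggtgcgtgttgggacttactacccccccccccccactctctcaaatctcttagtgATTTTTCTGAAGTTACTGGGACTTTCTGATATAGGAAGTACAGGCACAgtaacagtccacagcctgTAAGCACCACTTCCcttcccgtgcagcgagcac
There were 3 shared runs with 86 bases in all, the longest of 48 bases.

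Ms4a7, whose levels spanned the widest range in MG, shares none of these runs. Its window, chr19:11336097-11336396 on the minus strand, is shown with its match to GAGGAA, the core bound by the myeloid factor PU.1, in capitals.
Ms4a7: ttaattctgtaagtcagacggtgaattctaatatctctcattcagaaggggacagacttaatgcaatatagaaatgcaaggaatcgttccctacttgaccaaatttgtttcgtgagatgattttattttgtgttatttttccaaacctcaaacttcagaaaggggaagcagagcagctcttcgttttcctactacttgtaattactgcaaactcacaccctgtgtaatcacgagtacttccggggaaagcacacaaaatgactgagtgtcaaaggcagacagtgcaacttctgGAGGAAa
The same letters, searched on both strands, were found in the Ms4a4c window and in 28.3% of 32851 mouse promoters of that length. No window of the 5 held CACGTG (E-box), TTGCNNAA (C/EBP), TGANTCA (AP-1) or an interferon-stimulated response element, which occur in 7.15%, 10.8%, 7.81% and 3.44% of all promoters. The sequence likeness also limits how reads can be assigned. Of all 50-base stretches in GENCODE vM21 transcripts, 5.85% of those of Ms4a6c occur in Ms4a6b, and 8.19% of those of Ms4a4c occur in Ms4a4b or Ms4a4d, whereas Ms4a4a and Ms4a7 share none with another Ms4a gene.

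In microglia, the family was low before symptoms and higher in the symptomatic G93A mice, and Ms4a7 moved over the widest range. Ms4a7 had 0.63, 0.25, 0.68 and 0.19 FPKM in pre-symptomatic G93A MG. At onset its levels were 1.39, 56.9, 4.07, 0.57 and 7.67 FPKM. They were 45, 75.3, 58.1 and 41.9 FPKM in the early symptomatic stage and 182, 146, 73.1 and 44 FPKM at end stage. Every early symptomatic and end-stage library stood far above every pre-symptomatic one, while the onset libraries covered almost the whole range. On the log2(FPKM + 1) scale Ms4a7 was higher by 5.27 ± 0.72 (SE) in early symptomatic than in pre-symptomatic MG (adjusted p = 3.42e-05, limma with Benjamini-Hochberg adjustment over 11750 genes).

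**Figure D1:**
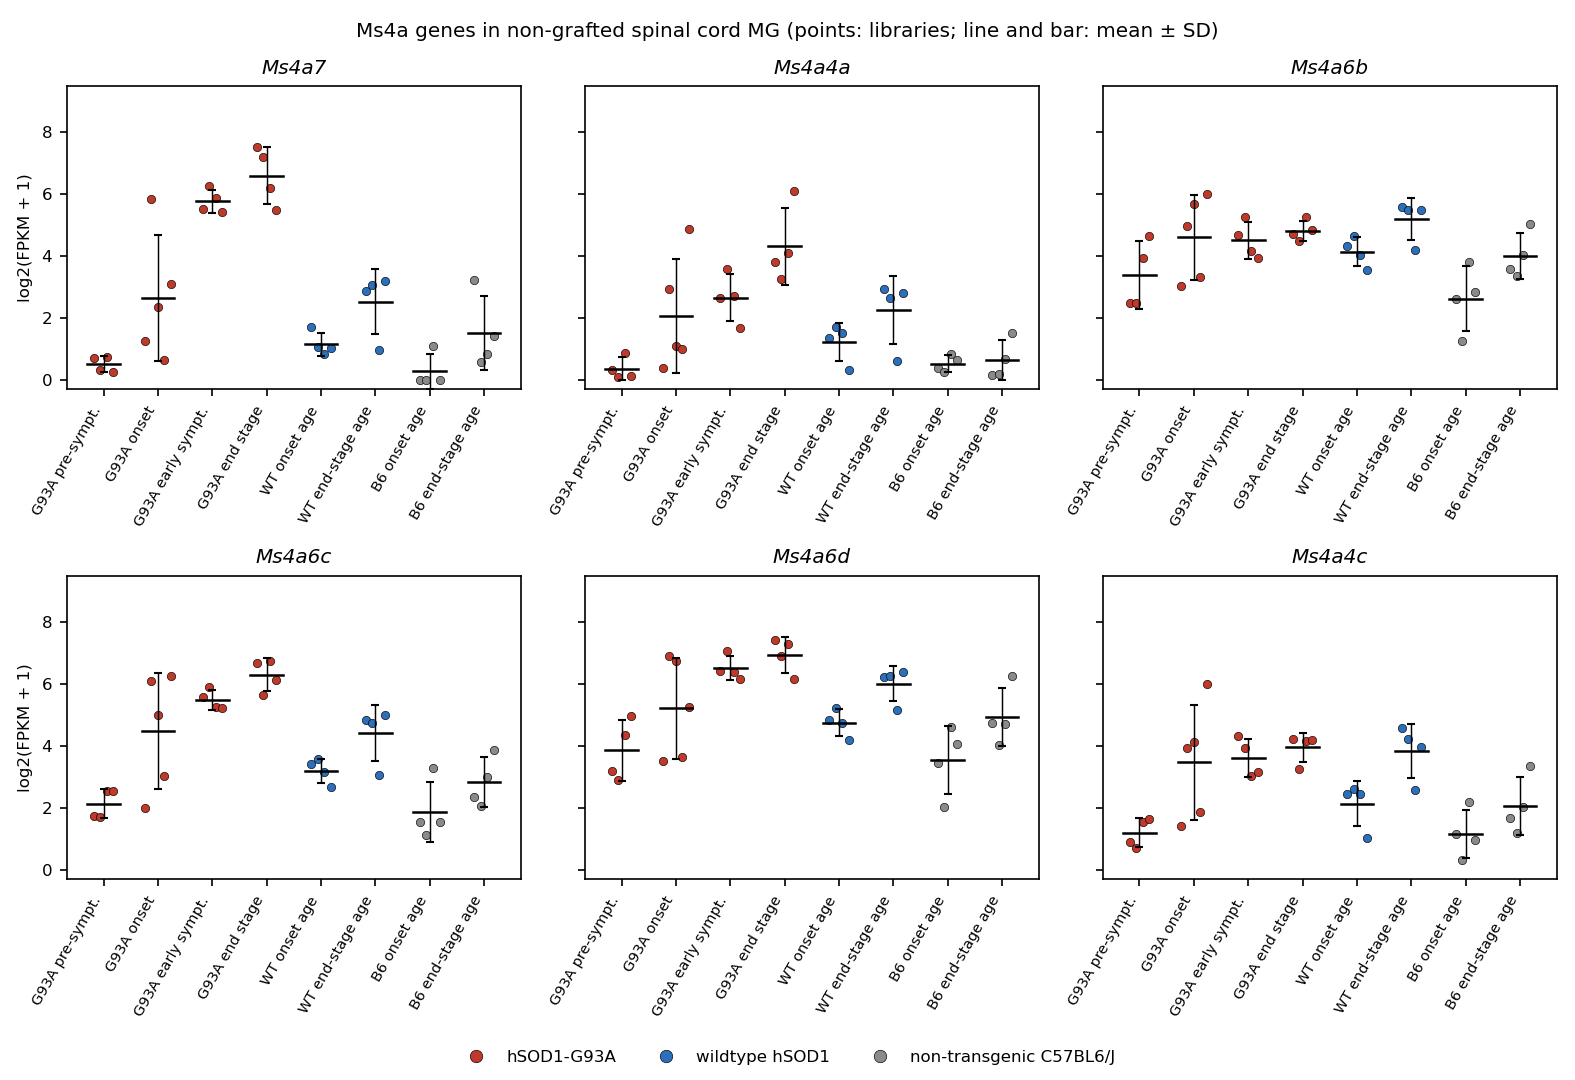
Levels of the 6 Ms4a genes in non-grafted spinal cord MG, on a log2(FPKM + 1) axis, by genotype and stage; each point is 1 library, and the line and bar give the mean and SD of the group. Ms4a7 lies below 1 FPKM in all pre-symptomatic G93A libraries and at 44 to 182 FPKM at end stage.

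Ms4a6c and Ms4a6d, mouse relatives of human MS4A6A, followed. Ms4a6c had 102.9, 49.2, 107.1 and 69.9 FPKM in end-stage G93A MG, against 2.38, 2.24, 4.8 and 4.88 FPKM in pre-symptomatic G93A MG. Ms4a6d had 173.2, 119.3, 156.7 and 70.4 FPKM at end stage, against 8.14, 6.47, 19.7 and 30.4 FPKM before symptoms. In both genes the lowest end-stage library lay above the highest pre-symptomatic one, by a narrower margin in Ms4a6d, which was already the most abundant of the 6 genes before symptoms (16.2 ± 11.2 FPKM, SD, n = 4). Ms4a6c was higher by 4.18 ± 0.66 (adjusted p = 5.5e-05) and Ms4a6d by 3.09 ± 0.65 (adjusted p = 0.000629) in the same limma fit.

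Ms4a4a, the mouse relative of MS4A4A, had 13.2, 8.51, 16 and 68.5 FPKM in end-stage G93A MG, against 0.26, 0.06, 0.85 and 0.1 FPKM in pre-symptomatic G93A MG. Ms4a4c had 17.6, 8.54, 17.1 and 17.2 FPKM at end stage, against 0.86, 0.63, 1.93 and 2.12 FPKM before symptoms. Neither gene overlapped between the groups, and the end-stage library with the top Ms4a4a value, replicate 4, was also the one with 49634 FPKM of neutrophil markers. Ms4a4a was higher by 3.96 ± 0.70 (adjusted p = 0.00016) and Ms4a4c by 2.76 ± 0.67 (adjusted p = 0.00183). Ms4a6b moved least, with 25.3, 21.5, 37.4 and 27.6 FPKM at end stage against 4.57, 4.55, 14.2 and 24.4 FPKM before symptoms. Its groups overlapped, its difference was 1.44 ± 0.59 (adjusted p = 0.0414), and the call was lost without any of end-stage replicates 1, 3 or 4 or pre-symptomatic replicates 1 or 2 (adjusted p 0.063 to 0.14).

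Counted together, 6 of 6 genes were higher in end-stage than in pre-symptomatic MG, where 24.8% of all genes tested were called higher. That count includes Ms4a7, whose call there is not independent of how it was chosen. By the early symptomatic stage 5 of 6 were called higher, beside 19.2% of all genes. The exception at the early stage was Ms4a6b (1.12 ± 0.59, adjusted p = 0.129). Without early symptomatic replicate 2, Ms4a4a also missed the threshold there (1.99, adjusted p = 0.0718). The median log2 difference of the 6 genes was 3.53 at end stage and 2.54 early, against 0.03 and 0.05 for all genes. At onset 3 of 6 were called higher than before symptoms, with 10.3% of all genes: Ms4a7 (2.14 ± 0.69, adjusted p = 0.0393), Ms4a6c (2.35 ± 0.62, adjusted p = 0.0391) and Ms4a4c (2.27 ± 0.64, adjusted p = 0.0391). That count rested on single libraries, since it was 0 without any of pre-symptomatic replicates 1, 2 or 3 or onset replicates 2, 3 or 5, and 5 or 6 without any of the others.

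The myelin signal moved with these differences. With oligodendrocyte and neutrophil marker scores as terms in the limma fit, Ms4a7 differed by 4.77 at end stage. Its p-value is left out because its end-stage level was used to choose it. The difference was 2.23 for Ms4a4a (adjusted p = 0.00419), 2.28 for Ms4a6c (adjusted p = 0.00131) and 1.48 for Ms4a6d (adjusted p = 0.0429). Ms4a4c gave 0.72 (adjusted p = 0.247) and Ms4a6b -0.26 (adjusted p = 0.714). Microglia markers also summed to 3173 to 9367 FPKM at end stage against 1504 to 7762 FPKM before symptoms. With a term for their score, chosen after seeing the data, all 6 genes were still called, beside 58.2% of all genes in either direction. Ms4a7 gave 5.79 and Ms4a6b 0.98 (adjusted p = 0.00748) in that limma fit. The call of Ms4a7 is again not independent of how it was chosen. The 9 measured of 10 markers of border and marrow-derived macrophages summed to 36.9 to 147 FPKM at end stage, against 7.66 to 14.1 FPKM before symptoms, where Lyve1 was listed at 0 in all 4 libraries. Of these markers, Mrc1 and Cd163 did not exceed 1.89 and 2.47 FPKM in any non-grafted MG library. The higher sums at end stage therefore came mainly from other markers of the list, whose levels are not given one by one here. The 10 neutrophil markers summed to 533.4 to 49634 FPKM at end stage, against 39.7 to 390.5 FPKM before symptoms, and 5 of the 10 were called higher. The 8 T and NK cell markers summed to 10.8 to 22 FPKM at end stage, against 0.66 to 1.88 FPKM before symptoms, and 1 of the 2 tested was called higher. Beyond the fit with the neutrophil score, the part of such cells in the results was not tested.

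Against the WT mice of like age, the genes fell into different orders. Ms4a7 had 182, 146, 73.1 and 44 FPKM in end-stage G93A MG, against 6.34, 7.38, 0.96 and 8.15 FPKM in WT MG, a log2 difference of 4.08 with a 95% confidence interval of 2.59 to 5.56. Of the 6 genes, 1 was past the threshold in that contrast, the one that the contrast was used to choose, beside 2.81% of all genes called higher. Nothing is read from that count. Ms4a6c had 49.2 to 107 FPKM in end-stage G93A MG and 7.44 to 31 FPKM in WT MG, and Ms4a4a 8.51 to 68.5 FPKM against 0.53 to 6.62 FPKM, with no overlap in either gene. Ms4a4c and Ms4a6b overlapped, at 8.54 to 17.6 FPKM in G93A against 4.95 to 22.9 FPKM in WT MG and at 21.5 to 37.4 FPKM in G93A against 17.2 to 47.1 FPKM in WT MG. Their differences were 0.12 ± 0.67 and -0.37 ± 0.59 (SE). Ms4a6d overlapped as well, with 70.4 to 173.2 FPKM in end-stage G93A MG against 35.1 to 83.1 FPKM in WT MG and a difference of 0.94 ± 0.65 (SE). The WT libraries differed in makeup too, with neutrophil markers at 79448, 41523, 773 and 3943 FPKM, against 708, 2028, 533 and 49634 FPKM in end-stage G93A MG. In the fit with marker terms Ms4a7 gave 3.28.

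At the age of onset, no member was called between G93A and WT MG by limma, where 4.31% of all genes were, and 2 had an unadjusted p under 0.05: Ms4a7 (1.48 ± 0.69) and Ms4a4c (1.33 ± 0.64). Without onset replicate 1 or replicate 4, the G93A libraries with 31950 and 25553 FPKM of oligodendrocyte markers, 3 genes were called (Ms4a7 at 1.83 and 1.98, Ms4a6c at 1.89 and 1.64, and Ms4a4c at 1.84 and 1.73). The share of all genes called in those fits is not given here, so that count is not read as a result about these genes. Within WT mice, the older group compared with the younger gave no call by limma, with 0.128% of all genes called and 1 member, Ms4a4c, at an unadjusted p under 0.05 (1.69 ± 0.67). All 6 WT differences were positive, between 1.03 and 1.69. The older WT library replicate 3 was the lowest of its group in all 6 genes and had the most oligodendrocyte markers, 23467 FPKM against 6709 to 9707 FPKM in the other WT libraries of that age. Without it Ms4a4c was called (2.11, adjusted p = 0.0498).

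In B6 mice, Ms4a7 was listed at 0 in 3 of the 4 younger B6 libraries and at 1.16 FPKM in the other. By group mean the order for Ms4a7 in MG was end-stage G93A (111.2 FPKM), early symptomatic (55.1), onset (14.1), older WT (5.71), older B6 (2.81), younger WT (1.3), pre-symptomatic G93A (0.438) and younger B6 (0.29). Each group overlapped the next in range, except that all younger WT libraries lay above all pre-symptomatic G93A libraries. The mean ages of those 2 groups were 107.3 and 50.8 days.

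In nerve macrophages, the family was abundant at every stage and no change over the disease course passed the test. Ms4a6c had the highest mean of the 6 genes in all 5 non-grafted MP groups, with means of 117.1 to 175.3 FPKM. Ms4a7 had 11.1, 31.5, 19.7 and 23.7 FPKM in end-stage G93A MP, against 10.2, 95 and 109 FPKM in pre-symptomatic G93A MP. The low pre-symptomatic library lay just below the end-stage range and the other pre-symptomatic libraries above it. The 9 measured border macrophage markers summed to 167, 1310 and 649 FPKM in the 3 pre-symptomatic libraries, in the order given, and to 91.4 to 278 FPKM at end stage. Their part in the Ms4a7 values was not tested. The log2 difference was -1.21 (interval -2.97 to 0.55, adjusted p = 0.851, limma over 10260 genes).

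**Figure D2:**
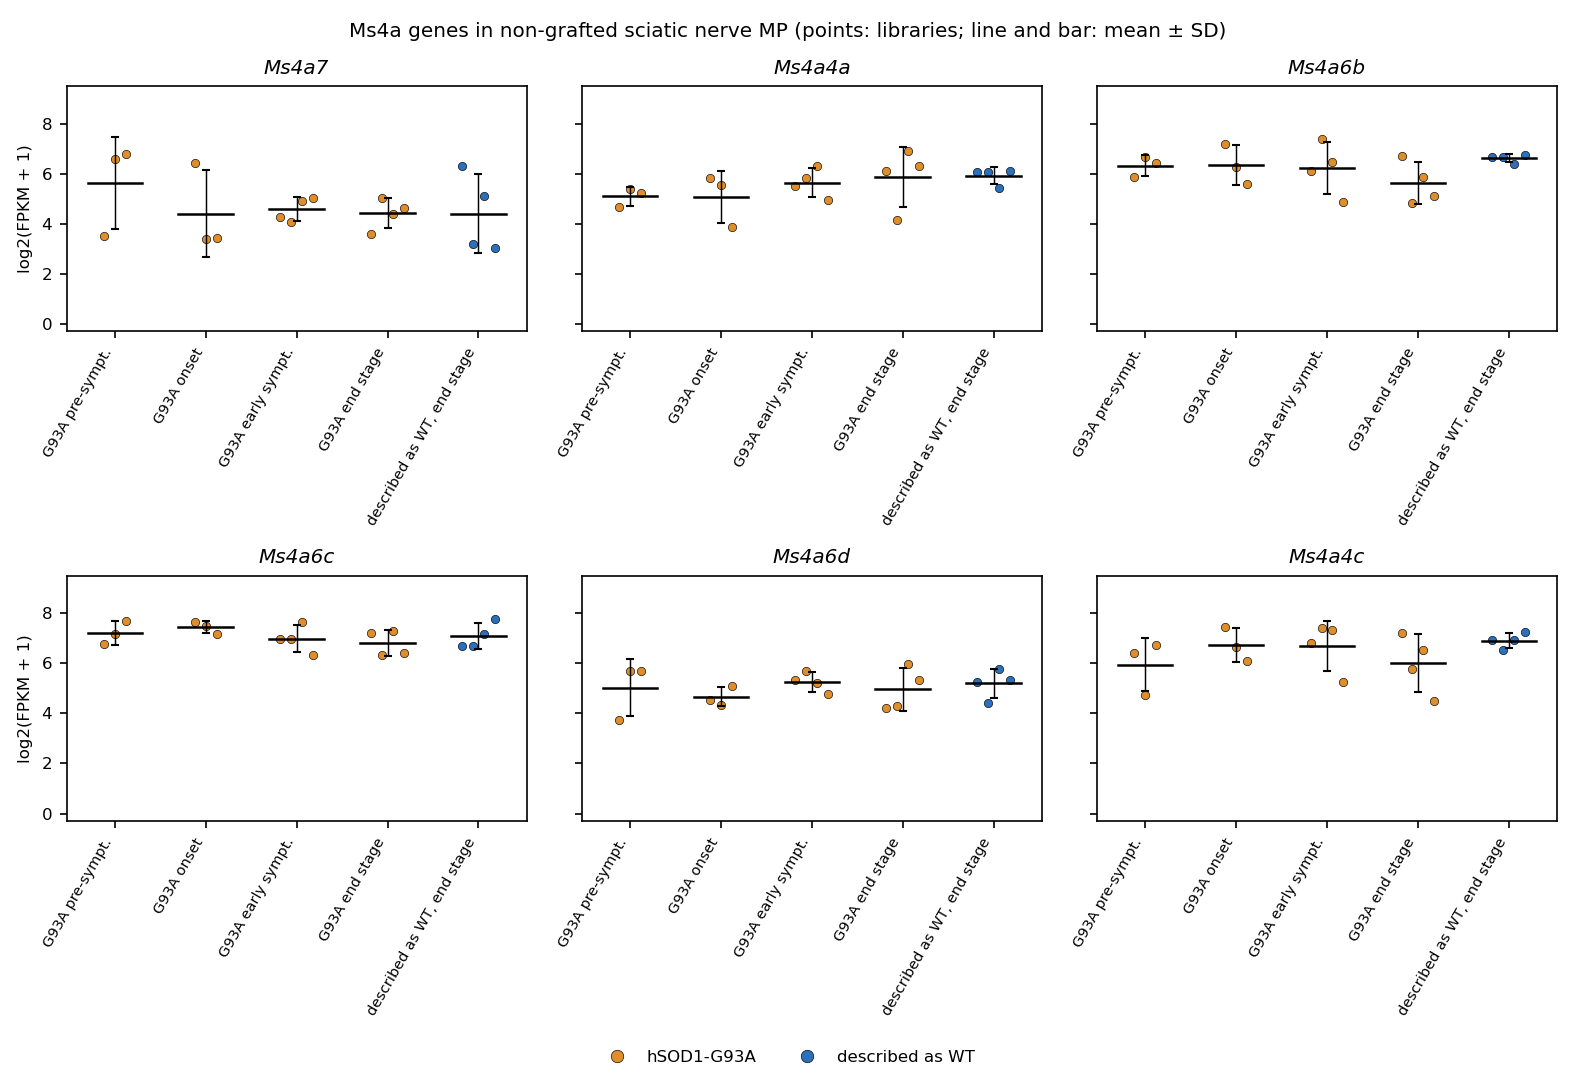
Levels of the 6 Ms4a genes in non-grafted sciatic nerve MP, on a log2(FPKM + 1) axis, at 4 stages of G93A mice and in the end-stage libraries described as WT; each point is 1 library, and the line and bar give the mean and SD. Each later stage overlaps the pre-symptomatic group in every gene, and Ms4a6c stays between 79.2 and 218 FPKM.

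Onset, early symptomatic and end-stage MP each gave 0 of 6 calls against pre-symptomatic MP by limma, with 0 members at an unadjusted p under 0.05, and 0%, 0% and 0.00975% of all genes called. End-stage G93A MP against the libraries described as WT also gave 0 of 6, with 0% of all genes called and 1 member at an unadjusted p under 0.05. That gene, Ms4a6b, had 102.6, 27.2, 57.2 and 33.2 FPKM in end-stage G93A MP, against 101.5, 100.1, 82 and 106.4 FPKM in the libraries described as WT (95% interval of the log2 difference -1.94 to -0.05, adjusted p = 0.747). The end-stage range covered nearly all of the values described as WT. Between end-stage and pre-symptomatic MP, the 95% intervals of the log2 difference were -0.34 to 1.86 for Ms4a4a, -1.72 to 0.32 for Ms4a6b, -1.09 to 0.30 for Ms4a6c, -1.10 to 0.94 for Ms4a6d and -1.16 to 1.27 for Ms4a4c.

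The difference in course between the tissues was itself tested. The end-stage minus pre-symptomatic change was smaller in MP than in MG in all 6 genes, and 5 of 6 passed the test of the difference, where 10.3% of all genes were called lower in MP. Ms4a7 differed by -7.31 ± 1.15, but its call is not independent of how it was chosen. The other differences that passed were -4.58 ± 0.83 for Ms4a6c (adjusted p = 0.000556), -3.20 ± 0.96 for Ms4a4a (adjusted p = 0.0185), -3.17 ± 0.87 for Ms4a6d (adjusted p = 0.012) and -2.70 ± 0.96 for Ms4a4c (adjusted p = 0.0413). Ms4a6b gave -2.14 ± 0.83 (adjusted p = 0.0608). Without end-stage MP replicate 2, only 3 genes were called, since Ms4a4a and Ms4a4c then had adjusted p = 0.0546 and 0.0668. Ms4a4c also missed the threshold without any of 8 further libraries, with adjusted p up to 0.108.

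**Figure D3:**
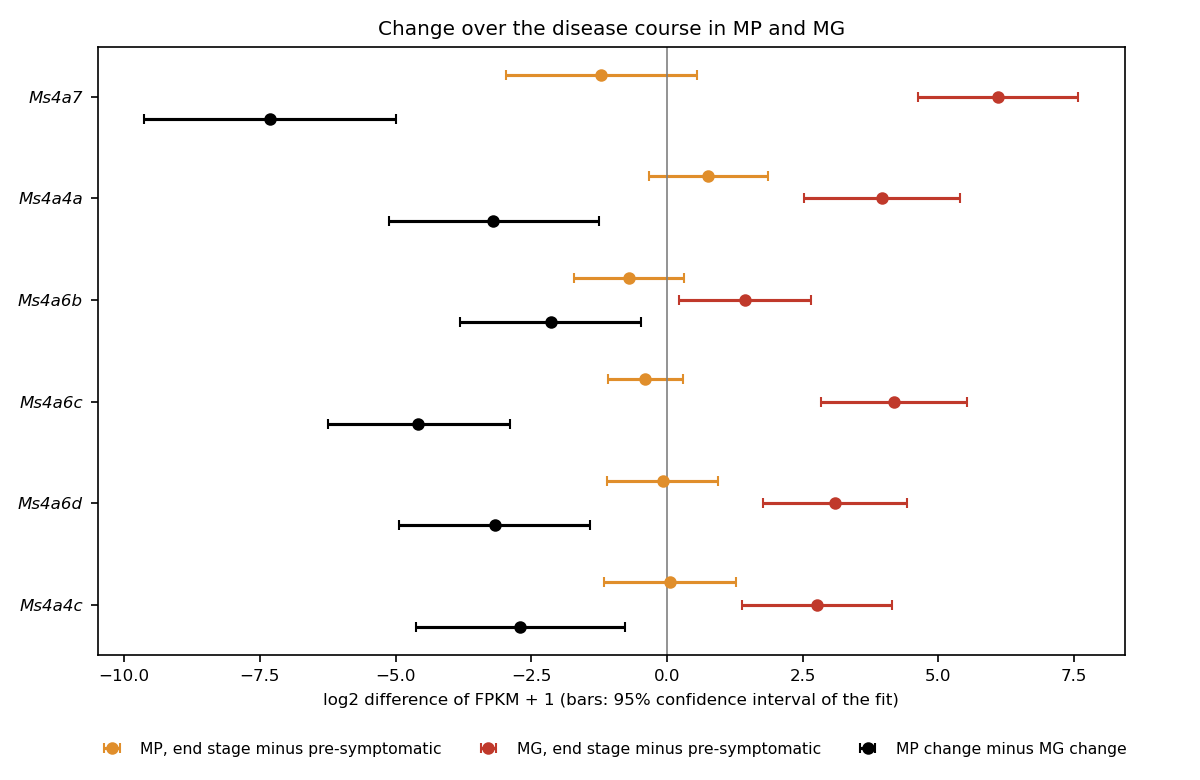
Change between end stage and pre-symptomatic G93A mice for each of the 6 genes, as log2 differences of FPKM + 1 with 95% confidence intervals, in MP (orange), in MG (red) and as the MP change minus the MG change (black). The MG intervals lie above 0 in all 6 genes, while the MP intervals include 0.

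The levels of the tissues were also compared within each stage. Before symptoms, 5 of 6 genes were higher in MP than in MG, with 23.6% of all genes called higher. Ms4a6c differed by 5.08 ± 0.61 (adjusted p = 1.24e-08), Ms4a7 by 5.11 ± 0.84 (adjusted p = 2.36e-06), Ms4a4c by 4.75 ± 0.70 (adjusted p = 3.91e-07), Ms4a4a by 4.74 ± 0.70 (adjusted p = 4.27e-07) and Ms4a6b by 2.93 ± 0.61 (adjusted p = 7.92e-05). Ms4a6d had 12.3, 50.5 and 50.6 FPKM in MP, against 8.14, 6.47, 19.7 and 30.4 FPKM in MG, and did not pass (1.18 ± 0.64, adjusted p = 0.117). It was called without MP replicate 1 (1.83, adjusted p = 0.0268) or MG replicate 4 (1.55, adjusted p = 0.0496).

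At end stage the genes split. Ms4a6d had 17.6, 18.5, 62.3 and 39.8 FPKM in MP, against 173.2, 119.3, 156.7 and 70.4 FPKM in MG, and was lower in MP by the fit (-1.99 ± 0.59, adjusted p = 0.007). Ms4a7 was also called lower in MP, at 11.1 to 31.5 FPKM against 44 to 182 FPKM in MG (-2.20 ± 0.78). That call is not independent of how the gene was chosen. Ms4a4c was higher in MP, with 148, 54.2, 91.4 and 21.7 FPKM against 17.6, 8.54, 17.1 and 17.2 FPKM in MG (2.05 ± 0.65, adjusted p = 0.0111). These 3 genes were the ones called, beside 39.4% of all genes called in either direction. Their ranges did not overlap between tissues, but the share of all genes without overlap was not counted in any comparison. Ms4a4a (1.54 ± 0.65, adjusted p = 0.0558), Ms4a6b (0.79 ± 0.56, adjusted p = 0.27) and Ms4a6c (0.50 ± 0.57, adjusted p = 0.5) did not pass. The Ms4a7 call was lost without MG replicate 1 or 2 or MP replicate 1 (adjusted p 0.0662 to 0.0754) and with a pseudocount of 0.1 (-2.25, adjusted p = 0.0615). Ms4a4c was lost as well without MP replicate 1 (1.65, adjusted p = 0.0619). Without MG replicate 4 or MP replicate 2, Ms4a4a was called higher in MP (2.14 and 2.12).

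In grafted G93A mice, every member was measured in MG and MP after WT or G93A marrow. Ms4a7 was the most abundant of the 6 genes in all 4 grafted MG groups. It had 329, 248 and 48.8 FPKM in early MG with WT marrow, against 240, 158 and 418 FPKM in early MG with G93A marrow. At end stage it had 201, 416 and 176 FPKM with WT marrow, against 211, 142 and 201 FPKM with G93A marrow. The marrow groups overlapped at both stages, with log2 differences of -0.66 (interval -1.97 to 0.66) and 0.43 (interval -0.89 to 1.74). In the non-grafted table, early and end-stage G93A MG had 41.9 to 182 FPKM of Ms4a7. The tables are set side by side here without a test. Mrc1 and Cd163 did not exceed 3.27 and 0.72 FPKM in grafted MG. The 9 measured of 10 markers of border and marrow-derived macrophages summed to between 52 and 170.3 FPKM in grafted MG, against 21.7 to 46.2 FPKM in early symptomatic and 36.9 to 147 FPKM in end-stage non-grafted G93A MG. Most of the sum in grafted MG came from markers of the list other than Mrc1 and Cd163. The part of the cells they mark in the Ms4a7 levels was not tested.

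**Figure D4:**
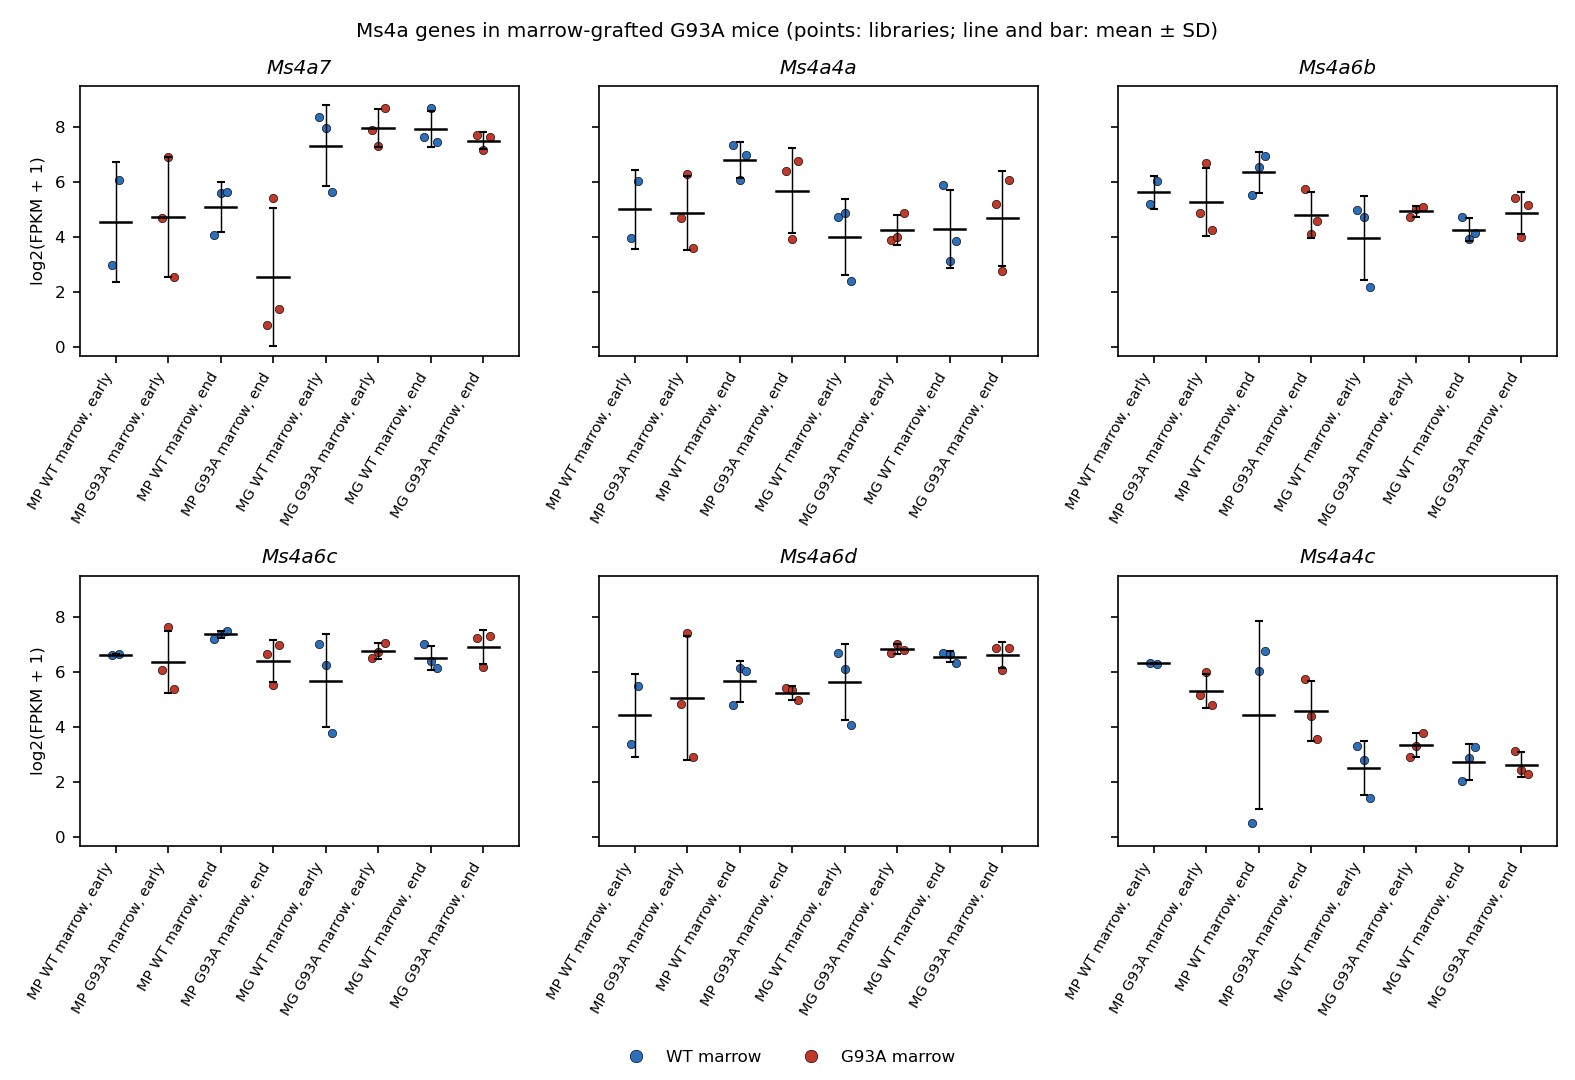
Levels of the 6 Ms4a genes in grafted G93A mice, on a log2(FPKM + 1) axis, for MP and MG after WT or G93A marrow at the early symptomatic and end stages; each point is 1 library, and the line and bar give the mean and SD. All grafted MG libraries have 48.8 FPKM or more of Ms4a7, and the marrow groups overlap in that gene.

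No member was called between WT and G93A marrow in MG by limma, at the early stage or at end stage, with 0% of 11143 genes called in either case. At an unadjusted p under 0.05 there was 1 member early and 0 at end stage. That member, Ms4a6d, had 102.8, 68.7 and 15.8 FPKM with WT marrow, against 102.4, 129.4 and 112.3 FPKM with G93A marrow (-1.22 ± 0.51, adjusted p = 0.424). It was called without WT-marrow replicate 1 (-1.75, adjusted p = 0.0282). WT-marrow replicate 3 was the lowest of its group in all 6 genes and held 28046 FPKM of oligodendrocyte markers and 1461 FPKM of microglia markers, against 1320 and 7214 FPKM of oligodendrocyte markers in the other WT-marrow libraries of that stage. Without that library the count was again 0. Between end stage and the early stage no member was called with either marrow, with 0% of all genes called and 0 members at an unadjusted p under 0.05.

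Grafted MP were equally without calls for marrow or stage by limma, with 0% of 10299 genes called in each of the 4 comparisons. Only Ms4a6b at end stage had an unadjusted p under 0.05, with 45.7, 93.9 and 124.6 FPKM with WT marrow, against 53, 16.3 and 23 FPKM with G93A marrow (1.55 ± 0.63, adjusted p = 0.273). Its groups overlapped. Ms4a6c did not overlap there, with all 3 WT-marrow values (148, 169 and 179 FPKM) above those with G93A marrow, but did not pass either (0.97 ± 0.51, adjusted p = 0.389). In the early group Ms4a4c had 80.2 and 78.1 FPKM with WT marrow, against 34.7, 63 and 26.9 FPKM with G93A marrow, with no overlap and no call (adjusted p = 1). The intervals are wide in these small groups, reaching -0.24 to 5.35 for Ms4a7 at end stage. One WT-marrow library, end-stage replicate 1, had 0.43 FPKM of Ms4a4c, against 65.5 and 108 FPKM in the other WT-marrow libraries.

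Between the tissues of end-stage mice with G93A marrow, Ms4a7 was lower in MP. It had 0.77, 42.3 and 1.64 FPKM in MP, against 211, 142 and 201 FPKM in MG, a difference of -4.96 ± 1.08 (adjusted p = 0.00174, limma over 11248 genes). This was the only member called, where 27.9% of all genes were called in either direction. The MP library with the high value, replicate 2, also held 1618 FPKM of microglia markers, against 106 and 86.6 FPKM in the other MP libraries of that group. The part of microglia in its Ms4a7 was not tested. Ms4a6d, at 41.9, 39.4 and 30.4 FPKM in MP against 117.6, 67.2 and 117.2 FPKM in MG, and Ms4a4c, at 52.8, 20.2 and 11 FPKM in MP against 7.86, 4.43 and 3.98 FPKM in MG, did not overlap but missed the threshold (adjusted p = 0.205 and 0.162).

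Ms4a7 was also expressed as a share of the family total, which needs no comparison between libraries. Per library, Ms4a7 made up 14.8% to 41.3% of the summed FPKM of the 6 genes in end-stage G93A MG, 1.45% to 4.35% in older WT MG and 0.306% to 3.74% in pre-symptomatic G93A MG. In older B6 MG its share was 1.25% to 16.2% and in onset G93A MG 1.79% to 19.2%. It was 2.26% to 13.8% in end-stage G93A MP, 3.45% to 20.8% in pre-symptomatic G93A MP and 1.2% to 15.2% in MP described as WT. The ranges of older WT MG, pre-symptomatic G93A MG and end-stage G93A MP lay wholly below that of end-stage G93A MG. The other ranges named so far overlapped it. In grafted MG the share of Ms4a7 was 34.5% to 66.1% over all 4 groups, and in grafted MP 0.231% to 23.7%. In the grafted library with the myelin signal of 28046 FPKM the share was 56%, against 52.6% and 54.7% in the other WT-marrow libraries of that stage, and the summed FPKM of the 6 genes was 87 there.

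**Figure D5:**
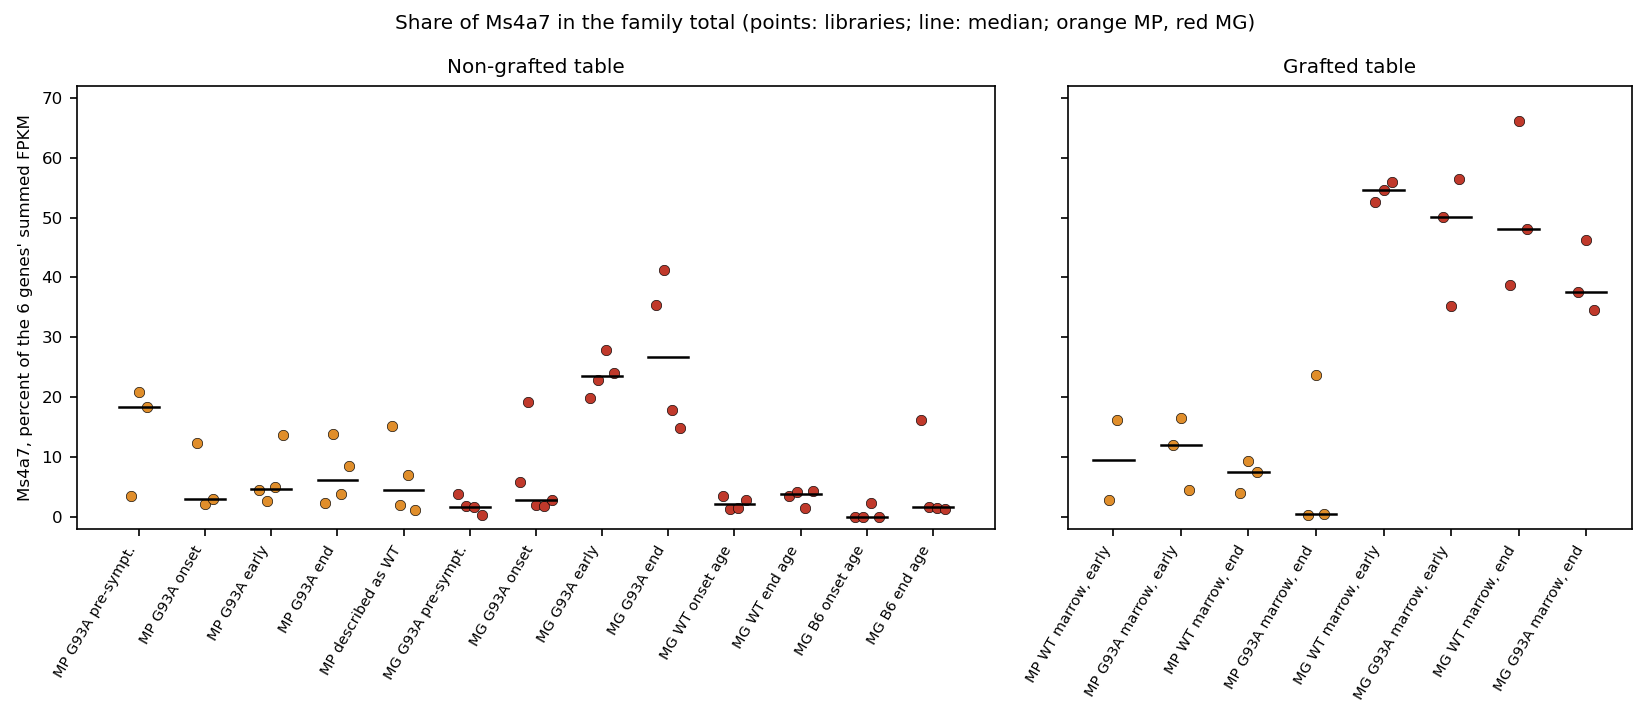
Share of Ms4a7 in the summed FPKM of the 6 Ms4a genes, in percent, per library (points) with the group median (line), for non-grafted (left) and grafted (right) mice; MP are orange and MG red. Early and end-stage G93A MG reach 14.8% to 41.3%, and grafted MG 34.5% to 66.1%.

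The other rows of the family were read from the same tables. Of the 10 further Ms4a genes, Ms4a5, Ms4a10, Ms4a13 and Ms4a18 did not exceed 0.62 FPKM in any library. Ms4a3, which marks granulocyte and monocyte progenitors in the mouse, had 44.1 to 309 FPKM in non-grafted MP and a median of 0.3 FPKM in MG. In MG it reached 72.5 and 40.7 FPKM in the onset and end-stage G93A libraries that had the most neutrophil markers of their groups. Ms4a8a had 6.19 to 74.5 FPKM in MP and a median of 0.09 FPKM in MG, and Ms4a1 had medians of 11.6 FPKM in MP and 0.13 FPKM in MG. Ms4a4b, known from mouse T cells and sharing stretches of sequence with Ms4a4c, had 4.37, 7.88, 6.34 and 5.93 FPKM in end-stage G93A MG, against 0.17, 0.15, 0.89 and 0 FPKM in pre-symptomatic G93A MG. It was higher by 2.47 ± 0.54 (adjusted p = 0.00087).

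Tmem176a and Tmem176b, relatives of the family on chromosome 6, were both abundant in MG. Tmem176a had 411.7, 295.0, 337.6 and 126.1 FPKM in end-stage G93A MG, against 70.5, 72.2, 109 and 139 FPKM in pre-symptomatic G93A MG. Its groups overlapped, and it was higher by 1.51 ± 0.44 (adjusted p = 0.00582), with 1.31 ± 0.43 for Tmem176b (adjusted p = 0.0122). Together, 3 of the 4 tested genes among these 12 relatives rose in end-stage against pre-symptomatic MG, where 24.8% of all genes were called higher. The receptors tied to MS4A4A rose in the same comparison, all 3 of 3 against that background of 24.8%: Clec7a by 5.24 ± 0.75 (adjusted p = 2.07e-05), Tyrobp, the adaptor of Trem2, by 3.67 ± 0.71 (adjusted p = 0.000342) and Trem2 by 2.71 ± 0.68 (adjusted p = 0.00228). In MP, end stage against pre-symptomatic gave 0 of these 3 by limma. Against older WT MG, end-stage G93A MG gave no limma call for Clec7a (2.36 ± 0.75, adjusted p = 0.0534), Tyrobp (1.13 ± 0.71, adjusted p = 0.333) or Trem2 (0.76 ± 0.68, adjusted p = 0.519). Ms4a4b (0.95 ± 0.54), Tmem176a (0.26 ± 0.44) and Tmem176b (0.13 ± 0.43) were not called there either, beside 2.81% of all genes called higher. Older minus younger WT MG gave 2.53, 1.72 and 1.16 for Clec7a, Tyrobp and Trem2, also without a call. Among 16 type I interferon response genes, 15 rose in end-stage against pre-symptomatic MG, with a median of 1.66 and the same background of 24.8%, and 0 of the 15 tested in MP were called.

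Each gene had its own closest partners in MG. By Pearson r of log2(FPKM + 1) over 33 non-grafted MG libraries and 11749 genes, Ms4a6d was most like C1qb (r = 0.992), C1qa (0.990) and C1qc (0.989), the chains of complement C1q. Ms4a7 was most like Mdfic (0.967), the merged row of Apoc2 and Apoc4 (0.967) and Il3ra (0.964). Ms4a6c was closest to Litaf, Gpr65 and Galns, Ms4a6b to Themis2, Tm6sf1 and Lcp2, Ms4a4a to Nfil3, Fabp4 and Stom, and Ms4a4c to Ube2l6, Ebi3 and Slfn2. No partner was named for more than 1 member. These libraries share the shift in oligodendrocyte and microglia markers given above, and its part in r was not tested. Over the 18 MP libraries the top values were lower, between 0.669 for Ms4a4a with Fam174a and 0.857 for Ms4a6b with Ifi35 and Ms4a4c with Rnf114.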

How the data were processed

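RNA was sequenced from CD11b-selected cells, and the authors deposited tables of FPKM per feature for non-grafted and grafted mice with mm10 coordinates. FastQC, SAMtools, Picard, R 3.2.5 and DESeq2 are named, per the submitters' processing notes, with no role for each. The sources used here give no aligner, strand setting or read count per library. FPKM of low genes fell on no common read step at the deposited precision, so depth is unknown and no counting interval is given; replicate spread alone sets the precision.

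From the deposited FPKM, log2(FPKM + 1) was fitted with limma 3.58.1 in R 4.3.3 on group means with a trended prior, over genes with a symbol and a mean of at least 1 FPKM in the libraries of the fit. All 6 members passed that filter in each of the 4 sets of libraries. MG, MP and both together were fitted separately in each table, with Benjamini-Hochberg adjustment over all genes tested and a threshold of 0.05. The grafted and non-grafted tables were not tested against each other. P-values set a difference of group means against the spread between libraries within groups, pooled over all groups of the fit.

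The alternatives were a pseudocount of 0.1, no filter, median-ratio scaling, only the groups compared, a replicate block, terms for marker scores, B6 controls, no MG libraries with S100a8 above 10000 FPKM and each library left out. Replicate numbers come from the titles. The labels do not say that they mark a shared animal. Deviations of same-numbered libraries from their group means correlated above 0.1 in every pair only in grafted MP against MG at end stage (3 pairs, 0.14 to 0.32). The members and lists were chosen with earlier results of these data known. Named genes were the members, every further Ms4a gene, Tmem176a and Tmem176b, the 3 genes most like each member, and Trem2, Tyrobp and Clec7a. The procedure was tested on simulated data.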

Additional observations from a re-analysis of the deposited data

Results flagged for a closer look

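Single libraries stood apart from their group, by the gap to the nearest value on the log2(FPKM + 1) scale, in 9 of the groups of 4 or 5 libraries checked gene by gene (66 in all). Chance gives about 1 in 20. Of these, 5 were the same library, older WT MG replicate 3, which was low for Ms4a7 (0.96 FPKM), Ms4a4a (0.53 FPKM), Ms4a6b (17.2 FPKM), Ms4a6c (7.44 FPKM) and Ms4a6d (35.1 FPKM). Its oligodendrocyte markers summed to 23467 FPKM, and their part in these values was not tested.

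The others were a high Ms4a7 value of 1.16 FPKM in younger B6 MG replicate 3, whose group was otherwise at 0, a low Ms4a4a value of 41.3 FPKM in replicate 3 of the MP described as WT, a low Ms4a4c value of 8.54 FPKM in end-stage G93A MG replicate 2, and a low Ms4a4c value of 1.06 FPKM in younger WT MG replicate 4.

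The change between end-stage and pre-symptomatic G93A mice differed between MP and MG by the test of that difference in limma, by -7.31 for Ms4a7, -3.20 for Ms4a4a, -4.58 for Ms4a6c, -3.17 for Ms4a6d and -2.70 for Ms4a4c on the log2 scale. The result for Ms4a7 is not independent of its choice by end-stage level.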

How the results depend on the processing

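Of 1836 alternative values for single genes, 58 lost a call, 50 gained one and 1 changed direction among the values called with or without the alternative: Ms4a6b in end-stage against pre-symptomatic MG, at -0.26 with terms for oligodendrocyte and neutrophil scores. Values that were not called also changed sign, such as Ms4a6d in onset G93A against WT MG, at 0.47 in the reported fit and -0.88 to 1.68 over its alternatives. For onset against pre-symptomatic MG the number of genes called was 3 of 6, with 25.4% of all genes called in either direction. It was 0 with no filter (0.0391% of all genes), with a replicate block (0%) and with marker terms (0.00851%). It was also 0 without the MG libraries rich in S100a8 (0.379%) and with only the groups compared (0%). With single libraries left out it was 0 to 6. For onset G93A against WT MG the number was 2 with a term for the microglia score, which was chosen after seeing the data. With B6 controls it was 5. In these fits 38.5% and 55.1% of all genes were called in either direction, against 4.31% in the reported fit. With single libraries left out the number was 0 to 3. For end-stage G93A against WT MG it was 1 of 6, with 7% of all genes called in either direction. It was 3 with median-ratio scaling (6.91% of all genes) and with marker terms (18.6%). It was 2 with a replicate block (8.25%) and without the libraries rich in S100a8 (14.4%). With the microglia term it was 4 (46.6%), and with B6 controls 5 (46.2%). In grafted MP against MG at end stage, 3 genes rather than 1 were called when the other groups were left out of the fit. That fit called 44.2% of all genes, against 27.9% in the reported fit. With single libraries left out, the counts were 0 to 1 for older against younger WT MG, 1 to 4 for end-stage MP against MG, 3 to 6 for the difference in course and 0 to 1 for WT against G93A marrow in early MG. The shares of all genes called with single libraries left out are not given here. Counts from those fits show only how far a count depends on single libraries. The causes were not tested. Scaling by median ratios turned the direction of no called gene. Where the replicate numbers may pair libraries, in grafted MP against MG, the replicate block gave the same single call (Ms4a7, adjusted p = 0.000702), and outside the MG comparisons named above the block moved no count by over 1.5 times. Read depth is unknown, so values near 0 FPKM carry no stated limit.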
